A study of Drosophila melanogaster with 12 samples.

Results

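The FGF and EGF pathway genes described here are 10 Drosophila genes, pyr, ths, htl and stumps of FGF signalling and Egfr, spi, rho, aos, pnt and edl of EGF signalling and its feedback. Members were the probe sets that the array annotation assigns to 1 of these genes alone. There were 7 such probe sets, 1 each for pyr, ths, htl, Egfr, spi, aos and edl, among 18769 probe sets tested and 11982 genes named. No probe set was named for stumps, rho or pnt in the annotation used here.

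The study measured RNA of embryonic mesodermal cells on 12 Affymetrix expression arrays, with 3 arrays in each of 4 groups. All embryos carried twi-gal4 and UAS-GFP, so that Twist-expressing cells made GFP, and GFP-positive cells were sorted at late stage 11 to early stage 12. The Slou gain-of-function embryos carried UAS-S59 in addition, and the Msh gain-of-function embryos carried UAS-msh. Slou and Msh, encoded by slou and Dr, are homeodomain proteins of muscle founder identity, and the Twist driver places them across the mesoderm rather than in the few founder cells that normally make them. Slou arrays were set against wild-type arrays 1A to 1C (wild-type set 1) and Msh arrays against wild-type arrays 2A to 2C (wild-type set 2). Nothing in the labels says that the 3 arrays of a group come from separate collections of embryos. The p-values therefore measure only the spread between these arrays, which may be technical, and the number of arrays limits the precision.

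In the fly embryo, the FGF ligands Pyramus and Thisbe are made mainly by the ectoderm and activate the receptor Heartless, which the mesoderm carries and needs to spread and to form dorsal muscle and heart progenitors. Spitz, the main embryonic EGF ligand, activates Egfr after Rhomboid cleaves it. Both receptors act through the Ras and MAPK cascade on Pointed, an ETS activator, and both are used to select muscle and heart progenitors. Argos is a secreted inhibitor that binds Spitz, and Edl, also called Mae, binds the ETS proteins Pointed and Yan and modulates their activity.

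Slou and wild-type set 1 arrays had medians of 2.59 to 2.72 on the deposited log2 scale, whereas Msh and wild-type set 2 arrays had medians of 3.85 to 3.91, so levels are compared only within each of these scalings. The slou probe set checked the first label, with 11.01, 11.08 and 11.12 in Slou arrays against 5.45, 5.69 and 5.61 in wild-type set 1 (difference 5.48, adjusted p = 0.00152). The Dr probe set gave 9.34, 9.34 and 9.38 in Msh arrays against 8.77, 9.17 and 9.16 in wild-type set 2, a difference of 0.32 (SE 0.14) that did not pass the test (adjusted p = 0.254). The groups did not overlap, and Dr was called higher in Msh arrays when the prior variance was allowed to follow mean signal. The arrays labelled Msh are still taken as Msh on their label, and whether the Dr probe set reads the transgene was not tested. By limma, slou was called lower in Msh arrays and Dr lower in Slou arrays. All 7 measured genes of the mesoderm marker list averaged above 2 in every group. Their summed linear signal was 1566 to 1580 in Slou arrays and 1307 to 1332 in wild-type set 1, and 4306 to 4381 in Msh arrays and 3602 to 3798 in wild-type set 2. Of their 10 probe sets, limma called 2 higher (sns and rols) and 1 lower (for bin) in Slou. In Msh it called 2 higher (twi and rols) and 0 lower. In whole sorted populations, fewer cells of a type and less RNA per cell cannot be told apart.

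In arrays labelled Msh, all 7 genes had higher mean levels than in wild-type set 2, and pyr and aos passed the test. In Slou arrays the genes went in both directions and 1 passed, edl, which was lower. Each gene was tested by limma over all 18769 probe sets and called at a Benjamini-Hochberg adjusted p under 0.05.

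**Figure D1:**
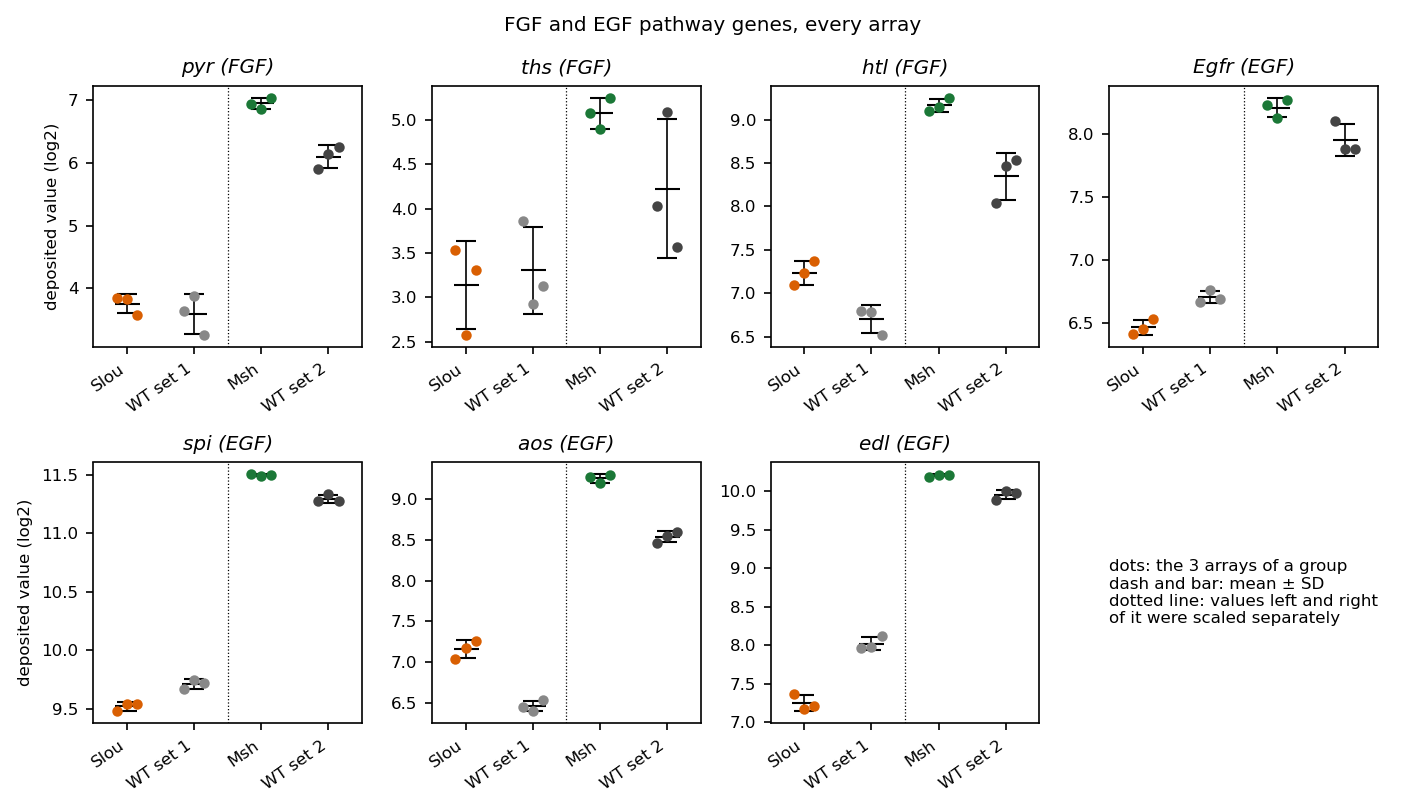
Deposited log2 signal of each member on each array (dots), with the mean and SD of each group (dash and bar, n = 3); the dotted line parts the 2 scalings, with Slou and its wild-type set on the left and Msh and its own on the right. For aos both gain-of-function groups lie wholly above their wild-type sets, while for edl the Slou arrays (7.17 to 7.37) lie below wild-type set 1 (7.96 to 8.12) and the Msh arrays (10.19 to 10.22) lie above wild-type set 2 (9.89 to 10.01).

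The FGF ligand pyr had log2 signals of 6.94, 6.87 and 7.04 in arrays labelled Msh, against 5.90, 6.15 and 6.26 in wild-type set 2. Every Msh array lay above every array of wild-type set 2. The gene rose by 0.85 (SE 0.12, adjusted p = 0.0294), a 1.80-fold higher signal, with a 95% interval of 0.53 to 1.17. In Slou arrays pyr had 3.85, 3.84 and 3.58, against 3.64, 3.89 and 3.26 in wild-type set 1. Those groups overlapped, and the difference of 0.16 (SE 0.20) did not pass (adjusted p = 0.788, 95% interval -0.36 to 0.68). The Slou effect minus the Msh effect, fitted over all 12 arrays, was -0.69 (SE 0.24) and did not pass either (adjusted p = 0.123), although it passed without wild-type array 1C (adjusted p = 0.0392) and with only probe sets of mean signal 4 or more tested (adjusted p = 0.0270).

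The second FGF ligand, ths, lies next to pyr on chromosome arm 2R, with 0 protein-coding genes between them in the RefSeq annotation of the Release 6 assembly. It had 5.08, 4.90 and 5.25 in arrays labelled Msh, against 4.03, 5.09 and 3.56 in wild-type set 2. Wild-type array 2B was as high as the Msh arrays and the other two were lower, so the groups overlapped. The mean difference was 0.85 (SE 0.42, adjusted p = 0.326, 95% interval -0.25 to 1.94), close in size to that of pyr but with a larger standard error (0.12 for pyr). It was 1.28 without wild-type array 2B and 0.52 without 2C, and against the other wild-type set it was 0.13, none of them passing. In Slou arrays ths had 3.54, 2.58 and 3.30, against 3.86, 2.92 and 3.13 in wild-type set 1. The groups overlapped, with a difference of -0.16 (SE 0.38, adjusted p = 0.894). Its 95% interval, -1.13 to 0.81, included differences of either sign.

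The FGF receptor gene htl had 9.10, 9.15 and 9.25 in arrays labelled Msh, against 8.04, 8.47 and 8.53 in wild-type set 2. No Msh array overlapped the wild-type set, and the difference of 0.82 (SE 0.16, 95% interval 0.41 to 1.23) had an adjusted p of 0.0528, just outside the threshold. In Slou arrays htl had 7.09, 7.23 and 7.37, against 6.80, 6.79 and 6.52 in wild-type set 1. These groups did not overlap either, with a difference of 0.53 (SE 0.14, adjusted p = 0.181, 95% interval 0.17 to 0.89). When the prior variance was allowed to follow mean signal (an intensity trend), htl passed in both comparisons, with adjusted p-values of 0.000122 in Msh and 1.82e-05 in Slou. The Slou effect minus the Msh effect was -0.29 with a 95% interval of -0.77 to 0.18 (adjusted p = 0.510).

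The EGF receptor gene Egfr had 8.24, 8.13 and 8.28 in arrays labelled Msh, against 8.11, 7.88 and 7.88 in wild-type set 2. In Slou arrays it had 6.41, 6.45 and 6.53, against 6.67, 6.76 and 6.68 in wild-type set 1. The Msh arrays were all higher and the Slou arrays all lower than their wild-type sets. Neither difference passed by itself, 0.26 (SE 0.10, adjusted p = 0.231) in Msh and -0.24 (SE 0.10, adjusted p = 0.346) in Slou, although both passed with the intensity trend (adjusted p = 0.0278 and 0.0362). The Slou effect was lower than the Msh effect by a tested difference of -0.50 (SE 0.13, adjusted p = 0.0408). Both signs turned when each group was set against the other wild-type set after quantile normalization over all 12 arrays, to -0.39 in Msh and 0.41 in Slou. By limma the turned Msh difference passed (adjusted p = 0.0432) and the Slou one did not (adjusted p = 0.0966).

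The EGF ligand spi varied little between arrays, with 11.50, 11.49 and 11.50 in arrays labelled Msh, against 11.28, 11.33 and 11.28 in wild-type set 2. In Slou arrays it had 9.48, 9.54 and 9.54, against 9.67, 9.75 and 9.72 in wild-type set 1. As for Egfr, the Msh arrays were all higher and the Slou arrays all lower than their wild-type sets. The differences were small, 0.20 (SE 0.07, adjusted p = 0.171) in Msh and -0.19 (SE 0.09, adjusted p = 0.426) in Slou, and passed with the intensity trend (adjusted p = 0.00228 and 0.00088). The test of the Slou effect minus the Msh effect gave -0.39 (SE 0.09, adjusted p = 0.0302).

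The inhibitor gene aos had 9.28, 9.20 and 9.30 in arrays labelled Msh, against 8.47, 8.56 and 8.60 in wild-type set 2. The groups did not overlap, and aos rose by 0.72 (SE 0.08, adjusted p = 0.0171), a 1.65-fold higher signal. In Slou arrays it had 7.04, 7.18 and 7.25, against 6.45, 6.40 and 6.53 in wild-type set 1. Again no arrays overlapped, and the difference of 0.70 (SE 0.11) stood just outside the threshold (adjusted p = 0.0581); it passed with the intensity trend (adjusted p = 5.0e-08) and when all 12 arrays shared one variance estimate (adjusted p = 0.000903). The Slou effect minus the Msh effect was -0.02 (SE 0.12), with a 95% interval of -0.29 to 0.25 (adjusted p = 0.958).

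The ETS modulator gene edl gave the widest separation of the Slou and Msh effects among members that passed that test. It had 10.19, 10.22 and 10.21 in arrays labelled Msh, against 9.89, 10.01 and 9.98 in wild-type set 2. In Slou arrays it had 7.37, 7.17 and 7.21, against 7.96, 7.98 and 8.12 in wild-type set 1. The Msh arrays lay above their wild-type set and the Slou arrays below theirs. In Slou edl fell by 0.77 (SE 0.11, adjusted p = 0.0493), a 1.70-fold lower signal, and in Msh the difference of 0.25 (SE 0.07) did not pass (adjusted p = 0.129). The Slou effect minus the Msh effect was -1.02 (SE 0.12, adjusted p = 0.00105, 95% interval -1.29 to -0.75). The call in Slou arrays was lost when any 1 of the 6 arrays was left out (adjusted p 0.109 to 0.169), whereas the difference of the effects passed without any 1 of the 12 arrays (adjusted p 0.00148 to 0.00565).

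**Figure D2:**
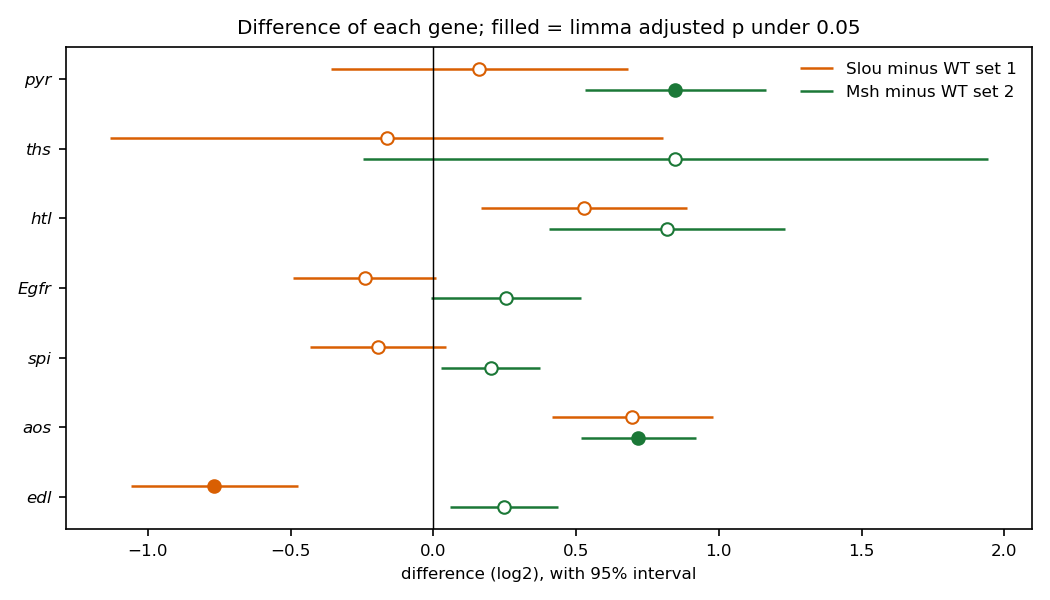
Log2 differences of the 7 members with 95% intervals, for Slou minus wild-type set 1 and Msh minus wild-type set 2; filled circles passed the limma test at an adjusted p under 0.05. Msh differences are all positive (median 0.72), Slou differences lie on both sides of 0 (median -0.16), and aos has nearly the same difference in both (0.70 in Slou, 0.72 in Msh).

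By count, arrays labelled Msh had 2 of the 7 genes higher (pyr and aos) and 0 lower, where 2.86% of all tested probe sets were called higher and 3.95% lower. At an unadjusted p under 0.05, 5 of the 7 passed. The share of all probe sets at that threshold was not counted, so unadjusted counts here and below have no background beside them. With the intensity trend 6 were higher, all but ths, against a background of 10.1% higher and 9.21% lower. The same 6 had groups that did not overlap, as did 17.5% of all probe sets on the higher side and 15.3% on the lower. The median difference was 0.72, beside 0.02 over all tested probe sets. Both calls were lost when any 1 array other than wild-type array 2A was left out (0 calls, with 3 to 6 genes at an unadjusted p under 0.05 over the 6 omissions), and over the same omissions the calls among all probe sets dropped to between 16 and 602.

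Slou arrays had 0 of the 7 genes higher and 1 lower (edl), where 1.24% of all tested probe sets were called higher and 1.08% lower. With the intensity trend htl and aos were higher and Egfr, spi and edl lower, against a background of 6.39% higher and 6.29% lower. Those 5 were also the members whose groups did not overlap, as did 12.5% of all probe sets on the higher side and 12.8% on the lower. The median was -0.16, beside -0.01 over all tested probe sets. For the Slou effect minus the Msh effect, 3 of the 7 were called lower (Egfr, spi and edl) and 0 higher, with 4 at an unadjusted p under 0.05, where 4.46% of all probe sets were called lower and 4.76% higher. Leaving out 1 array kept 1 or 2 of these calls: Egfr remained called only without wild-type array 2A and spi only without wild-type array 1A, while edl remained in all 12. Without wild-type array 1C the second call was pyr (-0.85).

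Divided by pathway, the 3 FGF genes had a median difference of 0.85 in arrays labelled Msh and 0.16 in Slou arrays, and the 4 EGF genes had medians of 0.25 in Msh and -0.22 in Slou. In Slou arrays pyr and ths had low mean signals, 3.76 and 3.14, and in wild-type set 1 they had 3.59 and 3.30. Such means lie below the minimum of 4 set in an alternative fit. The other FGF gene, htl, differed by 0.53 in Slou arrays, without overlap. The FGF genes had 1 call in Msh (pyr) and 0 in Slou by limma, with 1 (htl) at an unadjusted p under 0.05 in Slou. The EGF genes had 1 call in Msh (aos, higher) and 1 in Slou (edl, lower). Over all tested probe sets the shares were 2.86% higher and 3.95% lower in Msh, and 1.24% higher and 1.08% lower in Slou. Among the EGF genes aos stood apart from the other three in Slou arrays, since Egfr, spi and edl had negative differences and aos a positive one. No test compared FGF with EGF genes, since genes are not replicates.

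Other genes of these pathways were taken from 5 lists holding 57 genes, of which 44 were measured by 58 probe sets. Of these, 9 probe sets were higher and 0 lower in arrays labelled Msh, and 1 was higher and 0 lower in Slou arrays. Over all tested probe sets the shares were 2.86% higher and 3.95% lower in Msh, and 1.24% higher and 1.08% lower in Slou, so that the Slou count is near its background. Their median difference was 0.24 in Msh and 0.00 in Slou. Without 1 array these counts were 0 to 3 in Msh, with 3 calls without wild-type array 2A, and 0 in Slou, while 17 to 25 and 7 to 10 probe sets had an unadjusted p under 0.05.

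**Figure D3:**
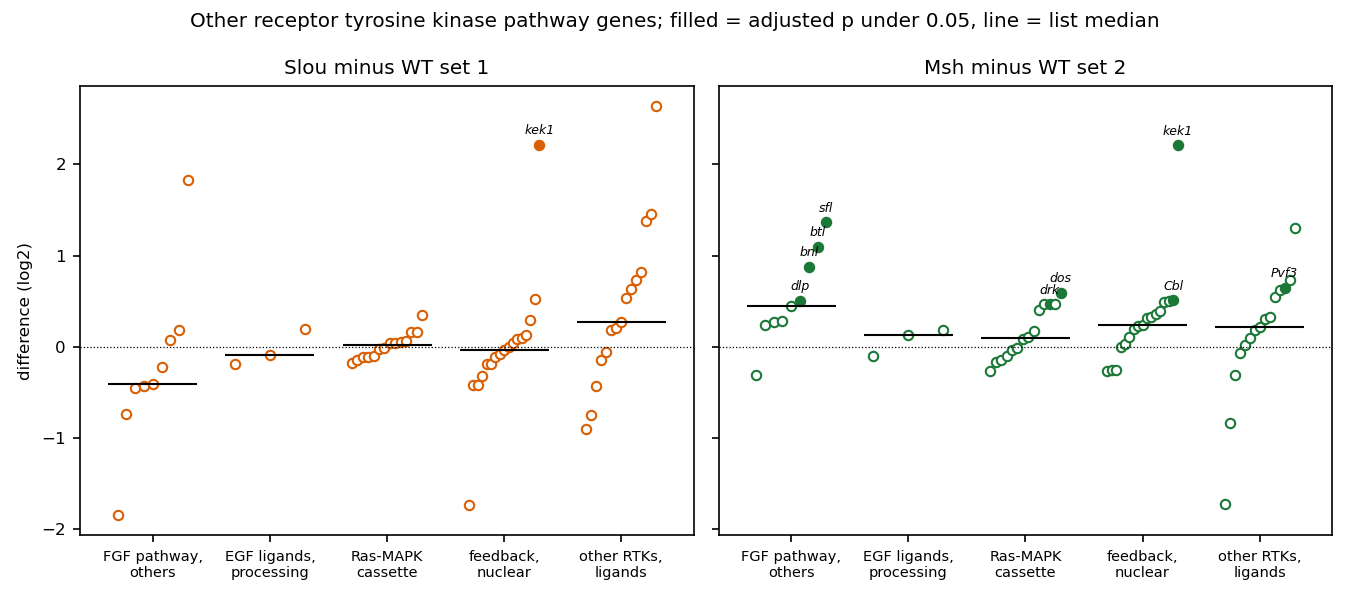
Log2 difference of each probe set in the 5 further pathway lists, for Slou minus wild-type set 1 and Msh minus wild-type set 2; filled circles passed the limma test and horizontal lines are list medians. The probe set of kek1 passes in both at 2.21, and the other FGF pathway genes have medians of -0.41 in Slou and 0.45 in Msh.

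The FGF list held the tracheal ligand and receptor genes bnl and btl and genes of the heparan sulfate chains that FGF receptors need. In Msh 4 of its 9 probe sets were higher: sfl, which encodes the heparan sulfate sulfotransferase, btl, the glypican gene dlp and 1 of 3 probe sets for bnl. The sfl signals were 7.03, 7.12 and 6.89 in Msh arrays, against 5.78, 5.70 and 5.45 in wild-type set 2, a non-overlapping rise of 1.37 (SE 0.12, adjusted p = 0.0127). For btl they were 6.25, 6.39 and 6.50 in Msh arrays, against 5.26, 5.11 and 5.47 in wild-type set 2, a rise of 1.10 (SE 0.13, adjusted p = 0.0202). The dlp difference was 0.51 (SE 0.08, adjusted p = 0.0347). The called bnl probe set had 6.28, 6.10 and 6.37 in Msh arrays, against 5.09, 5.56 and 5.47 in wild-type set 2, a rise of 0.88 (SE 0.16, adjusted p = 0.0474), while the other two differed by 0.24 and 0.28 without passing.

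In Slou arrays 0 of the 9 probe sets passed in limma, and 4 had an unadjusted p under 0.05, all with negative differences. The 3 bnl probe sets differed by -1.84, -0.74 and -0.43 (adjusted p = 0.117, 0.200 and 0.248), all with Slou arrays below wild-type set 1. The bnl probe set with -1.84 had 1.81, 2.18 and 0.88 in Slou arrays, against 3.61, 3.11 and 3.66 in wild-type set 1. Its Slou signals thus lay below the medians of the Slou arrays (2.64 to 2.72), and its difference of effects below (-2.72) rests on them. The Slou effect was lower than the Msh effect for all 3 bnl probe sets (-2.72, -0.98 and -0.70, adjusted p = 0.00579, 0.0357 and 0.0242), for dlp (-0.73, adjusted p = 0.00916) and for the heparan sulfate sulfotransferase gene Hs6st (-0.85, adjusted p = 0.00372). It was higher for sgl, which encodes UDP-glucose dehydrogenase, by 0.49 (adjusted p = 0.0140).

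Among feedback and nuclear regulators, kek1, a transmembrane inhibitor of Egfr induced by EGF signalling in the ovary, had the highest difference of its list in both comparisons. Its signals were 6.59, 6.42 and 6.30 in arrays labelled Msh, against 3.51, 4.41 and 4.76 in wild-type set 2. In Slou arrays they were 5.18, 4.91 and 5.03, against 2.43, 2.98 and 3.06 in wild-type set 1. No groups overlapped, and kek1 rose by 2.21 in both, with SE 0.35 and adjusted p = 0.0353 in Msh and SE 0.21 and adjusted p = 0.0174 in Slou. Cbl, which encodes a ubiquitin ligase for activated receptors, rose in Msh by 0.51 (SE 0.08, adjusted p = 0.0378) with 1 probe set, while its second differed by -0.25 (adjusted p = 0.354). In this list of 17 probe sets, 1 was called in Slou (kek1) and 2 in Msh (kek1 and Cbl).

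The feedback inhibitor gene sty, which encodes Sprouty, did not pass in either comparison with either of its 2 probe sets (0.40 and 0.36 in Msh with adjusted p = 0.0506 and 0.280, -0.18 and -0.19 in Slou). The Slou effect was lower than the Msh effect for 1 of the sty probe sets (-0.58, adjusted p = 0.00894), while the other missed the threshold (-0.55, adjusted p = 0.118). It was also lower for the called Cbl probe set (-0.84, adjusted p = 0.00249) and for aop, which encodes the ETS repressor Yan (-0.43, adjusted p = 0.0325).

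In the Ras and MAPK list, 2 of 14 probe sets were higher in Msh, the adaptor genes drk (0.47, SE 0.08, adjusted p = 0.0362) and dos (0.59, SE 0.11, adjusted p = 0.0456). Slou arrays had 0 calls there by limma, with 1 probe set at an unadjusted p under 0.05. The dos effect was lower in Slou than in Msh by a difference of -0.77 (adjusted p = 0.0113). The 3 measured genes of the EGF ligand and processing list, Krn, grk and S, had 0 calls by limma in either comparison, with 0 at an unadjusted p under 0.05. Among 15 probe sets of other receptor tyrosine kinases and their ligands, 1 of 4 for the PDGF- and VEGF-like ligand gene Pvf3 was higher in Msh (0.65, SE 0.08, adjusted p = 0.0234), a call that did not hold with the intensity trend (adjusted p = 0.150).

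Markers of other cell types and RNA measures also moved with the groups. Neural markers had a summed linear signal of 6523 to 6734 in Msh arrays, against 5146 to 5816 in wild-type set 2, and of 669 to 735 in Slou arrays, against 1152 to 1230 in wild-type set 1. Of 11 neural probe sets, for 8 of 9 listed genes, 2 fell in Slou (pros by 0.98 with adjusted p = 0.0196 and nerfin-1 by 1.15 with adjusted p = 0.0174) and 2 rose in Msh (sens by 1.22 with adjusted p = 0.00618 and ase by 0.58 with adjusted p = 0.0228). The summed neural signal thus lay above wild type in Msh and below it in Slou, as Egfr, spi and edl did. The synaptic gene nSyb went the other way without passing, with differences of -2.47 in Msh and 0.52 in Slou. For the Slou effect minus the Msh effect, 6 of the 11 neural probe sets were lower and 1 (nSyb) higher.

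**Figure D4:**
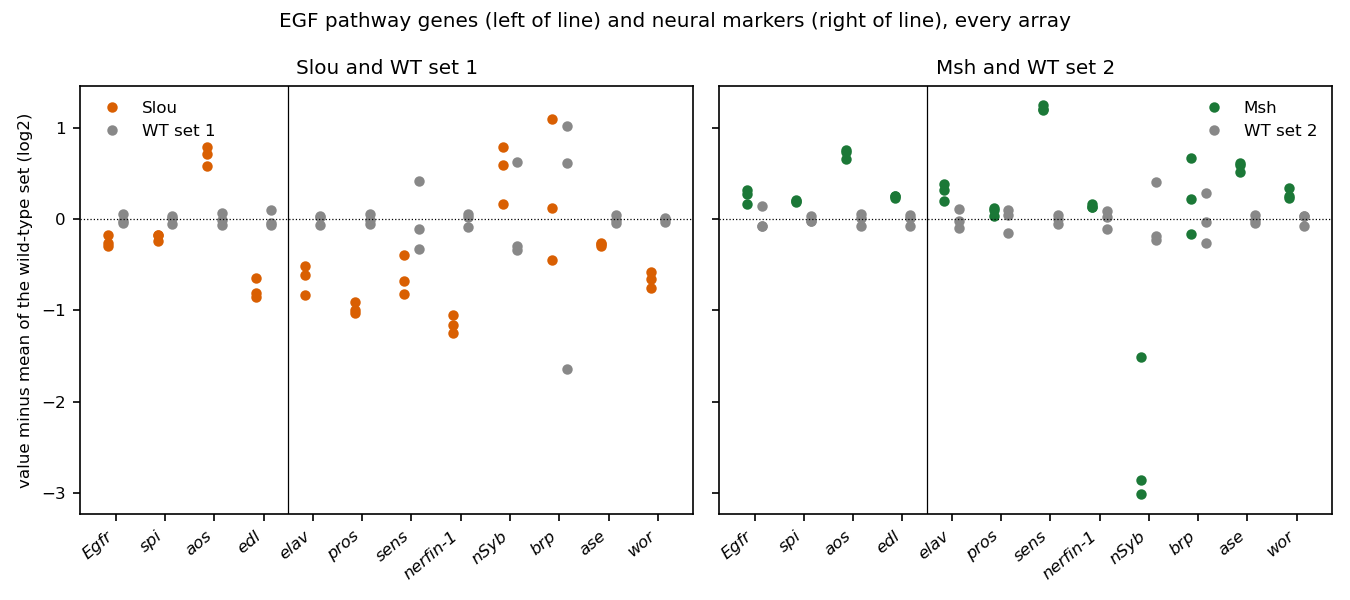
Log2 signal of every array minus the mean of its wild-type set, for the 4 EGF genes (left of the line) and 8 neural marker genes (right of the line, the probe set with the highest mean for each), with Slou and wild-type set 1 in one panel and Msh and wild-type set 2 in the other. Slou arrays lie below 0 for Egfr, spi and edl and for 6 of the neural genes, all but nSyb and brp, and Msh arrays lie above 0 for the same genes.

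Markers of the epidermis, which derives from the ectoderm, had summed signals of 3674 to 3833 in Msh arrays and 2459 to 2861 in wild-type set 2, with 4 of 12 probe sets higher (1 of 2 for grh, the 1 for crb and 2 of 6 for sdt, whose other 4 had negative differences that did not pass). In Slou arrays their sums were 781 to 823 and in wild-type set 1 they were 673 to 719, with 0 of 12 called by limma and 2 at an unadjusted p under 0.05. Tracheal markers, btl among them, summed to 1243 to 1389 in Msh arrays and 1099 to 1221 in wild-type set 2, and to 150 to 160 in Slou arrays and 133 to 157 in wild-type set 1. Of their 5 probe sets, 1 was higher in Msh (btl) and 2 were lower in Slou, 1 of 2 for vvl (-1.47, adjusted p = 0.0172) and kni (-0.73, adjusted p = 0.0499). In the test of the Slou effect minus the Msh effect, 3 epidermal probe sets were lower, 1 each for grh (-0.98, adjusted p = 0.00515), crb (-0.71, adjusted p = 0.00223) and sdt (-1.03, adjusted p = 0.00515), and 1 was higher, for pnr (0.59, adjusted p = 0.0423). The tracheal vvl (-2.09, adjusted p = 0.00062) and kni (-1.08, adjusted p = 0.000884) were also lower by that test, as were 4 of 10 mesoderm probe sets, with 1 higher. Hemocyte marker sums were lower in both, at 5653 to 5906 in Msh arrays against 8341 to 8598 in wild-type set 2, and 2230 to 2379 in Slou arrays against 2728 to 2829 in wild-type set 1. Of 8 hemocyte probe sets, limma called 4 lower and 0 higher in Msh (Hml, Col4a1, vkg and PPO1). In Slou it called 3 lower (gcm, Col4a1 and vkg) and 1 higher (Pxn). Midline markers had 0 of 3 probe sets called by limma in either comparison, with 1 at an unadjusted p under 0.05 in Slou and 0 in Msh. Their sums were 68.4 to 78.3 in Msh arrays and 62.4 to 123 in wild-type set 2, and 27.5 to 30.1 in Slou arrays and 13.1 to 28.9 in wild-type set 1. The defining markers nSyb (in Slou, wild-type set 1 and Msh), sli and btl (in wild-type set 1) and Hml (in Msh) averaged below 2 on the log2 scale.

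The actin 3′ minus 5′ control difference was 2.23 ± 0.10 in Msh arrays and 1.44 ± 0.04 in wild-type set 2, and 1.47 ± 0.02 in Slou arrays and 1.44 ± 0.02 in wild-type set 1 (SD, n = 3 each). The Gapdh 3′ minus 5′ control difference was 2.80 ± 0.19 in Msh arrays and 2.69 ± 0.31 in wild-type set 2, and 3.61 ± 0.11 in Slou arrays and 3.05 ± 0.04 in wild-type set 1. Poly-A spike controls averaged 9.11 ± 0.15 in Msh arrays and 10.75 ± 0.45 in wild-type set 2, and 6.04 ± 0.11 in Slou arrays and 6.71 ± 0.03 in wild-type set 1. The part of these markers and controls in the differences of the 7 genes was not tested.

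For pyr, aos and edl, the genes called against their own wild-type set in Msh or Slou, the probe sets with the most similar pattern were sought by Pearson correlation over the 12 arrays, after subtraction of the mean of the matching wild-type set. Candidates were 4846 probe sets with a mean signal of 6 or more. The correlations are descriptions over the same 12 arrays, which share their group means. For aos the closest were Ect3 (r = 0.990), CG41099 (r = 0.985) and klar (r = 0.985), with differences of 1.30, 0.52 and 2.42 in Msh and of 1.31, 0.43 and 2.16 in Slou. For edl they were Oli (r = 0.990), Hsc70-3 (r = 0.989) and wor (r = 0.989), with differences of 0.17, 0.16 and 0.28 in Msh and of -0.86, -0.54 and -0.66 in Slou. The wor gene is also on the neural marker list. For pyr they were chb (r = 0.967), Mbs (r = 0.959) and Csk (r = 0.959).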

How the data were processed

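Total RNA of sorted cells (2 to 5 µg per labelling, per the labels' protocols) was hybridised to 1-colour Affymetrix arrays. The deposited values are the authors' log2 signals per probe set, made with affy, per the submitters' processing notes; its version and settings are not given in the sources used here, and no probe intensities were used. Of 18952 probe sets, 183 controls were left out. Of the 18769 tested, 13647 name 1 gene, 402 several and 4720 none. Slou arrays and wild-type set 1 were fitted together (6 arrays), as were Msh arrays and wild-type set 2, with limma 3.58.1 (lmFit and eBayes without intensity trend) in R 4.3.3. The Slou effect minus the Msh effect was a contrast of 4 group means over 12 arrays. P-values were adjusted by Benjamini-Hochberg over all tested probe sets, with calls under 0.05. The fits were tested on simulated data. Alternatives were an intensity trend, 12 arrays in 1 fit, quantile normalization, median centring, a minimum mean log2 value of 4, a replicate block, the other wild-type set, and leaving out each array. Members, gene lists and tests were chosen with earlier results of these data known. Named were all members, up to 4 called genes per pathway list and comparison with the smallest p, the 3 genes most like each called member, and slou and Dr. Other pathway and marker genes named for their place on a list were chosen after their values were seen.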

Additional observations from a re-analysis of the deposited data

Results flagged for a closer look

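For 3 genes the Slou and Msh effects differed by the test of the difference itself, fitted by limma over 12 arrays. The Slou effect minus the Msh effect was -1.02 for edl (adjusted p = 0.00105), -0.50 for Egfr (adjusted p = 0.0408) and -0.39 for spi (adjusted p = 0.0302). When 1 array was left out, edl passed in all 12 omissions, Egfr only without wild-type array 2A and spi only without 1A. With the replicate block in limma, Egfr and spi missed the threshold (adjusted p = 0.0931 and 0.0725). Egfr also missed it in limma with median centring (adjusted p = 0.0706). Against the other wild-type set, after quantile normalization over 12 arrays, both Egfr signs turned. By limma the difference was then -0.39 in Msh, which passed (adjusted p = 0.0432), and 0.41 in Slou (adjusted p = 0.0966). Under that setting spi and edl kept their signs. For each of the 3 genes all 3 Msh arrays lay above wild-type set 2 and all 3 Slou arrays lay below wild-type set 1. Of all probe sets, 17.5% lay wholly above in Msh and 12.8% wholly below in Slou. The share that did both was not counted. The 3 genes were picked by the test of the difference, so their opposite directions add no separate support. Each group has its own wild-type set and scaling, and the neural marker sums moved in the same directions. By the same test, 3 of 12 epidermal probe sets (for grh, crb and sdt) were lower and 1 (pnr, 0.59) was higher. Epidermal sums lay above wild type in both Slou and Msh arrays. Of 5 tracheal probe sets 2 (for vvl and kni) were lower and 0 higher. Of 10 mesoderm probe sets 4 were lower and 1 higher. The part of the scaling and of these markers in the differences of the 3 genes was not tested.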

How the results depend on the processing

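Over 21 results and 298 alternatives, 288 values kept their direction and 10 turned, in 5 results. With an intensity trend the members called were 6 in Msh and 5 in Slou, and the other pathway probe sets called were 25 and 14. That fit called 3621 of all 18769 probe sets in Msh and 2380 in Slou. With a mean log2 value of 4 or more the members were 5 in Msh and 5 in Slou (of 5 tested). The others were 26 of 49 in Msh and 11 of 38 in Slou. Calls over all probe sets also rose, from 1278 in the main fit to 3586 in Msh and from 434 to 2135 in Slou. With 12 arrays in 1 fit Slou had 2 members and 11 others, where 1591 of all probe sets were called. Against the other wild-type set Msh had 5 members (4 higher and 1, Egfr, lower) and 27 others, and Slou 11 others. Calls over all probe sets were then 3633 in Msh and 2007 in Slou. Under that setting signs turned for Egfr (-0.39 in Msh, 0.41 in Slou), pyr in Slou (-0.44) and ths in Slou (0.40). Between the arrays of a comparison, same-letter correlations were -0.0143 to 0.0304 over 6 pairs, and different-letter ones were -0.0369 to 0.0223. Such values cannot show whether arrays of 1 letter were handled together. With the replicate block, 0 members were called in Msh and 0 in Slou (3 and 2 at an unadjusted p under 0.05), 0 and 0 others (20 and 9), and 1 member (edl) for the Slou effect minus the Msh effect; limma then called 0 of all probe sets in either single comparison. Leaving out each array gave 0 to 2 members in Msh, 0 to 0 in Slou and 1 to 2 for the difference of effects, and 0 to 3 others in Msh and 0 to 0 in Slou. It moved the aos difference of effects between -0.069 and 0.037 (0.014 without wild-type array 1C, 0.016 without 2A), pyr in Slou between -0.0043 and 0.31, and ths in Slou between -0.36 and 0.12 (0.11 without wild-type array 1A). The filter tests fewer probe sets and the omissions use fewer arrays; the cause of the other shifts was not tested. Signal over background could not be assessed from the deposited values.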
